A study of Mus musculus with 3 samples.

Results

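The CC chemokine ligands described here are Ccl2, Ccl3, Ccl4, Ccl5, Ccl6, Ccl7, Ccl9 and Ccl24, 8 of the 23361 genes in the deposited tables, taken by gene symbol and followed across sham, ischemic and reperfused mouse liver. The choice used no threshold on their values, but it was made with earlier results of these data known. All 8 were listed in every library with status OK. Another 16 CC ligand genes are in the tables and are given only as a comparison. Counts over the 8 thus describe these genes and not the whole family.

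CC chemokines are small secreted proteins named for a pair of adjacent cysteines near the start of the mature protein. They bind G protein coupled receptors of the Ccr family on leukocytes, and in the liver they are made by Kupffer cells and other macrophages, by lymphocytes and by stressed parenchymal, endothelial and stellate cells. Ccl2 and Ccl7 bind Ccr2 and draw monocytes, Ccl3, Ccl5, Ccl6, Ccl7 and Ccl9 can bind Ccr1, and Ccl24 (eotaxin-2) binds Ccr3 on eosinophils.

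All mice were C57BL/6J, labelled male, 8 to 10 weeks old and fasted for 12 h, and chloral hydrate was the anesthetic in every group. Sham mice were opened but not clamped, and liver was collected at 90 min. In the warm ischemia (WI) group the left and median lobes were without blood flow for 90 min, and in the ischemia-reperfusion (IR) group the same occlusion was followed by 120 min of reperfusion. Each group had 6 mice but is represented by 1 mRNA library, so there are no replicates, no test was made, and whether a library holds 1 mouse or a pool is not stated in the sources used here. No sham group matched the IR group in time, so reperfusion and the added time after surgery cannot be told apart.

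The labels and the libraries disagreed on sex. Xist, the RNA of the inactive X chromosome, had an FPKM (fragments normalized for transcript length and library size) of 18.9 in Sham, 20.1 in WI and 1.29 in IR. The Y-linked gene Eif2s3y was listed at 0 in Sham and in WI and at 13.2 in IR, and Ddx3y was at 0, 0.00849 and 8.58. The Sham and WI libraries thus went against the male label, and in every comparison with IR the sex of the mice and the treatment cannot be told apart. The summed FPKM was 475754 in Sham, 487912 in WI and 712423 in IR. Rescaling to a common sum moved the median log2 change of all genes by -0.44 for IR against WI and by -0.47 for IR against Sham, and calls that depend on this are named below. The liver marker Alb was listed at 0 in all 3 libraries, with the status that marks a locus too deep to process, whereas the other 5 hepatocyte genes of the list kept their FPKM.

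The sequences around the cysteine pair show what the 8 genes share and where they differ. Each line below gives 45 bases of the coding sequence from the GENCODE transcript of that symbol, with the codons of the cysteine pair in capitals.
Ccl2: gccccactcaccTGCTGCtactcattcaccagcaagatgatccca
Ccl7: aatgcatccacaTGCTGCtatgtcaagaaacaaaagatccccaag
Ccl3: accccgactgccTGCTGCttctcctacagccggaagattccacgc
Ccl4: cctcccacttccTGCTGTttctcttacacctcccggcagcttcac
Ccl5: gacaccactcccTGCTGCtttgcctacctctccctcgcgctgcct
Ccl6: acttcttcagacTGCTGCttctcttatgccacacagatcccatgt
Ccl9: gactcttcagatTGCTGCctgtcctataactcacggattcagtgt
Ccl24: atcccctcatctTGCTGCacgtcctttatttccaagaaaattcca

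The pair was encoded by the same codons in every gene but Ccl4, whose second codon was TGT. Over the whole coding sequence, identity ran from 38.9% to 68.4% across the 28 pairs of genes, with a median of 48.6%. Ccl3 and Ccl4 were the most alike at 68.4%, and Ccl6 and Ccl9 followed at 64.6%. The longest run of bases shared by a pair of transcripts was 25, between Ccl6 and Ccl9, and Ccl2 and Ccl7 shared a run of 23. Exact matches between members were thus no longer than that, and the read length is not given in the sources used here.

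Of the 8 genes, 7 lie on chromosome 11 in 2 groups (mm10, as in the tables). Ccl2 is at chr11:82035577-82037452 and Ccl7 next to it at chr11:82045712-82047523. The other group holds Ccl5 (chr11:83525779-83530518), Ccl9 (chr11:83572917-83578636), Ccl6, Ccl3 (chr11:83647843-83649378) and Ccl4 (chr11:83662584-83664683). The tables place Ccl6 in a locus of chr11:83582061-83623693 that also carries E230016K23Rik, whereas RefSeq gives Ccl6 itself as chr11:83587886-83593087. Values of Ccl6 are for this reason less certain than the others. RefSeq also starts Ccl4 at base 83648624, inside Ccl3, while the locus of the tables does not overlap it. Ccl24 is alone on chromosome 5, at chr5:135569937-135573043.

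Ccl2, Ccl7, Ccl3 and Ccl4 were scarce in the Sham and WI livers and were 6.41 to 35.4 times as high in IR as in WI on plain FPKM. The liver's standing CC ligands were Ccl9 and Ccl6. Ccl24 was the only member with its lowest value in IR. In the sentences that follow, each FPKM is given with its deposited 95% bounds. These come from the Cuffdiff model, with 1 library per group, and do not measure the spread between mice of a group. How that model set their width is not given in the sources used here.

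**Figure D1:**
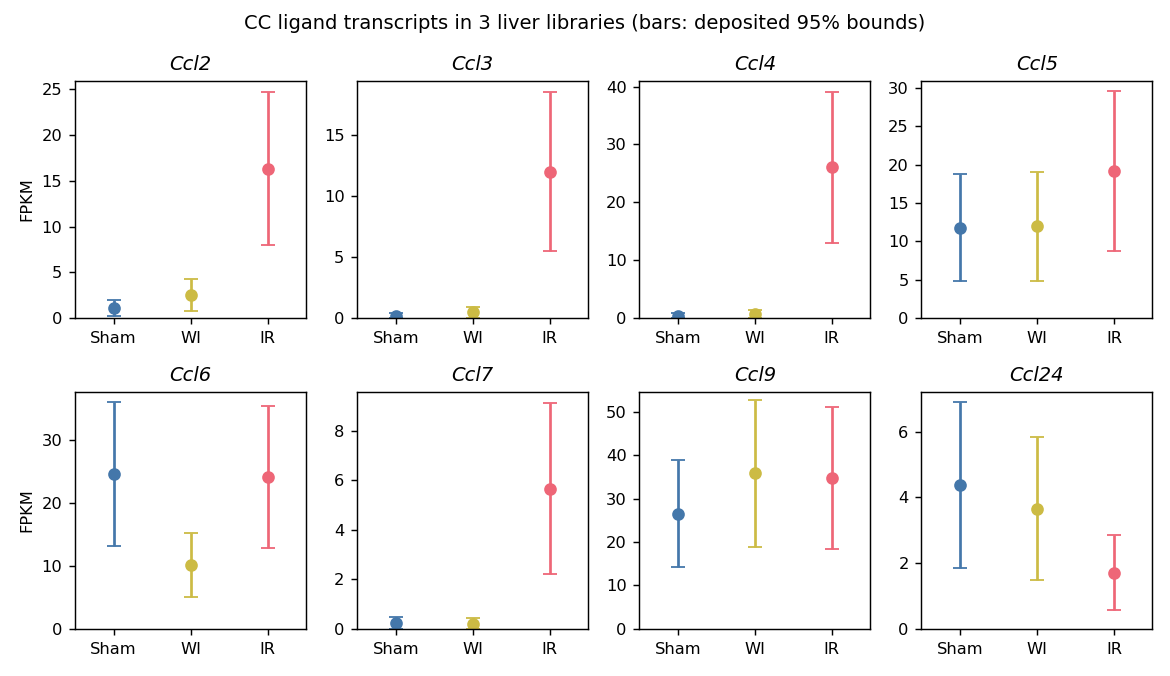
FPKM of the 8 CC ligands (linear axes starting at 0, a separate scale for each gene) in the Sham, WI and IR libraries, with points for the deposited value and bars for its 95% bounds. For Ccl2, Ccl3, Ccl4 and Ccl7 the bar of IR lies wholly above the bars of Sham and WI, and for the other 4 genes the bars overlap.

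Ccl2 (MCP-1), the main monocyte attractant, had an FPKM of 1.08 in Sham (0.223 to 1.94), 2.55 in WI (0.784 to 4.31) and 16.3 in IR (7.95 to 24.7). The IR bounds lay above both others, while those of Sham and WI overlapped. Ccl7 (MCP-3), encoded beside it, had 0.225 in Sham (0 to 0.476), 0.208 in WI (0 to 0.448) and 5.66 in IR (2.20 to 9.12). Ccl7 was near the limit of detection in both libraries without reperfusion and well above it in IR.

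Ccl3 (MIP-1 alpha) had an FPKM of 0.175 in Sham (0 to 0.387), 0.473 in WI (0.0264 to 0.919) and 12.03 in IR (5.54 to 18.5). Its near relative Ccl4 (MIP-1 beta) had 0.440 in Sham (0 to 0.885), 0.736 in WI (0.0706 to 1.40) and 26.03 in IR (13.1 to 39.0). Both are attractants of monocytes, macrophages and T cells, and both moved from the lower end of expressed genes to the upper end. Among genes with an FPKM above 0, Ccl4 stood at percentile 25.6 in Sham, 32.0 in WI and 85.7 in IR, and Ccl3 at 17.8, 27.4 and 75.9.

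Ccl5 (RANTES), a product of T and NK cells as well as macrophages, had an FPKM of 11.8 in Sham (4.80 to 18.8), 11.99 in WI (4.89 to 19.1) and 19.2 in IR (8.74 to 29.6). All 3 pairs of its bounds overlapped. It was already the third most abundant member in Sham, unlike the 4 genes above.

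Ccl9 (MIP-1 gamma), a myeloid ligand of Ccr1, had an FPKM of 26.5 in Sham (14.1 to 38.8), 35.8 in WI (18.9 to 52.6) and 34.7 in IR (18.3 to 51.1). It was the highest member in all 3 libraries. Ccl6, its closest relative in coding sequence and the other abundant myeloid ligand, had 24.6 in Sham (13.2 to 36.0), 10.1 in WI (5.02 to 15.2) and 24.1 in IR (12.9 to 35.4). Ccl6 was low in WI alone, with bounds that overlapped those of Sham and of IR.

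Ccl24 had an FPKM of 4.38 in Sham (1.86 to 6.90), 3.66 in WI (1.49 to 5.83) and 1.71 in IR (0.567 to 2.86). Its bounds overlapped in every pair of libraries.

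Ordered by FPKM, the Sham library ran Ccl9, Ccl6, Ccl5, Ccl24, Ccl2, Ccl4, Ccl7 and Ccl3. In WI Ccl5 stood above Ccl6 and Ccl3 above Ccl7. In IR the order was Ccl9, Ccl4, Ccl6, Ccl5, Ccl2, Ccl3, Ccl7 and Ccl24. Every pair of neighbours in these orders had overlapping bounds, so the steps of the order are not resolved. The ratio of the highest to the lowest member was 151 in Sham, 172 in WI and 20.3 in IR. The lowest member was Ccl3 in Sham and Ccl7 in WI, each with a lower bound of 0. The ratios of these libraries thus have no resolved upper limit.

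The summed FPKM of the 8 ligands was 69.2 in Sham, 65.5 in WI and 140 in IR. Ccl6 and Ccl9 together made up 73.9% of it in Sham, 70.0% in WI and 42.1% in IR. Ccl2, Ccl3, Ccl4 and Ccl7 together made up 2.78%, 6.06% and 43.0%. In IR these 4 genes carried about as much of the pool as Ccl6 and Ccl9. In whole liver, more cells of a type and more RNA per cell cannot be told apart.

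Changes between libraries are differences of log2(FPKM + 1), and a gene was counted as changed at 2-fold or more. The 10792 genes that reached an FPKM of 1 in any library were tested. All 8 ligands passed this filter, Ccl3, Ccl4 and Ccl7 through the IR library alone, so these 3 had to be higher there. The 3 comparisons share libraries, so their values are given side by side and not as separate evidence.

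In WI against Sham, the comparison for ischemia, 1 of the 8 ligands changed. None was at least 2-fold higher, where 0.751% of all genes were, and 1 was at least 2-fold lower, where 1.10% were. The one was Ccl6, which fell by 1.21 on the log2 scale. No member had bounds apart. The median log2 change of the 8 genes was 0.15, beside 0.02 over all genes tested. The highest change was that of Ccl2, at 0.77, percentile 98.5 of all genes tested.

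In IR against WI, the comparison for reperfusion, 5 of the 8 ligands changed, all upward, where 5.78% of all genes were at least 2-fold higher. The log2 change was 3.96 for Ccl4, 3.15 for Ccl3, 2.46 for Ccl7, 2.29 for Ccl2 and 1.18 for Ccl6. Of these 5, all but Ccl6 had IR bounds wholly above the WI bounds, 4 of 8 beside 3.22% of all genes. Ccl5 differed by 0.64, Ccl9 by -0.04 and Ccl24 by -0.78, none past the threshold. The median of the 8 was 1.73, beside 0.03 over all genes. Ccl4 stood at percentile 99.7 of all genes tested and Ccl3 at 99.4.

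In IR against Sham, 4 of the 8 changed, again upward, where 5.35% of all genes were at least 2-fold higher. The same 4 genes, Ccl2, Ccl3, Ccl4 and Ccl7, had bounds wholly above those of Sham, where 2.70% of all genes had. Their log2 changes were 3.06, 3.47, 4.23 and 2.44. Ccl5 differed by 0.66, Ccl9 by 0.38 and Ccl6 by -0.03. The median of the 8 was 1.55, beside 0.05 over all genes.

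**Figure D2:**
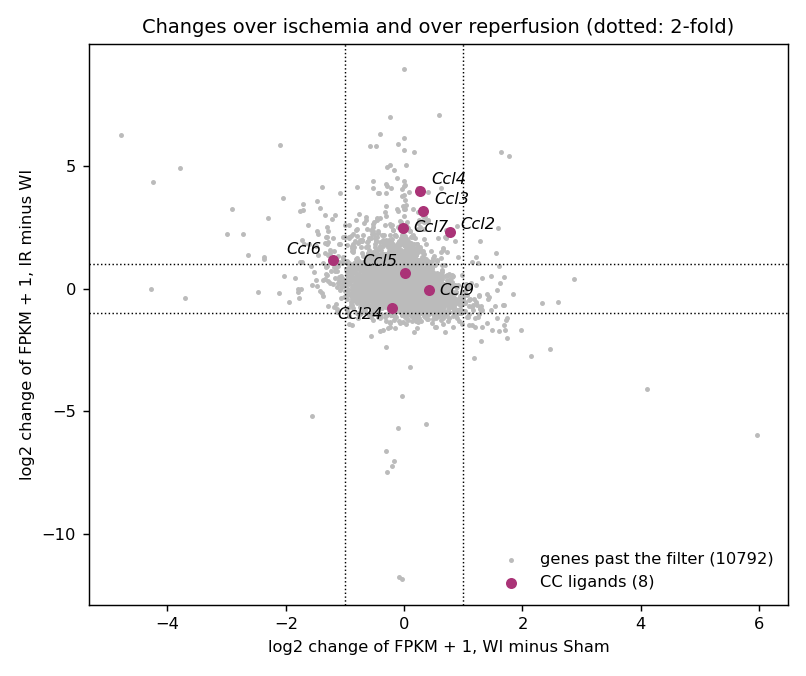
Log2 change of FPKM + 1 from Sham to WI (horizontal axis) against that from WI to IR (vertical axis) for the 10792 genes past the filter (grey) and the 8 CC ligands (purple), with dotted lines at 2-fold. Both axes use the WI library, so a high or low WI value moves a gene along the falling diagonal. Ccl2, Ccl3, Ccl4 and Ccl7 lie above the upper line and between the lines of the ischemia step, Ccl6 lies beyond the lower line of the first step and the upper line of the second, and Ccl5, Ccl9 and Ccl24 lie inside all lines.

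The members nearest the threshold were Ccl6 inside it and Ccl24 outside it. Ccl24 was 1.98-fold lower in IR than in Sham on FPKM + 1, a log2 change of -0.99, just under the 2-fold rule, and 2.56-fold lower on plain FPKM. With the deposited bounds of both libraries combined, its log2 change spanned -1.90 to -0.08. The change of Ccl6 in WI spanned -2.13 to -0.28 and its change from WI to IR 0.26 to 2.10, both on one side of 0 although the bounds of the single libraries overlapped. On FPKM rescaled to a common sum, Ccl6 differed between IR and WI by 0.67 and was no longer past the threshold, while Ccl24 crossed it at -1.15 against WI and -1.39 against Sham. Ccl2, Ccl3, Ccl4 and Ccl7 kept log2 changes of 1.82 to 3.54 against WI under that rescaling. Ccl9 went from -0.04 to -0.57 and stayed under the threshold. Against Sham, the rescaling put IR at -0.59 for Ccl6, at -0.19 for Ccl9, whose sign turned, and at 0.11 for Ccl5.

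The number of fragments behind a low FPKM could be read from the width of its deposited bounds, since that width took fixed values for 1, 2, 3 and more fragments. For 897 genes with such a width in all 3 libraries, the number in each library was predicted from the other libraries. Of 2691 predictions, 99.3% were within 0.5 of the number read from the width. The widths resolved at most 12 fragments, so this check does not reach the larger numbers below. A gene with the same number of fragments had 0.898 times the FPKM in WI and 1.25 times the FPKM in IR that it had in Sham. On this reading Ccl2 rested on 19 fragments in Sham, 50 in WI and 228 in IR. Ccl3 rested on 3, 9 and 164, Ccl4 on 6, 11 and 281, and Ccl7 on 4, 4 and 79. The other 4 ligands had none of the fixed widths in any library, and too few genes of known number had a like width in Sham. No number was estimated for them.

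These numbers give intervals for counting error alone, exact conditional ones at 95%, and the spread between mice is not in them. The intervals take the recovered numbers as given. For Ccl2 every number rests on a reading from a curve in Sham, and the error of that reading is not included. The ratio of plain FPKM between IR and WI was 6.41 for Ccl2 (4.70 to 8.89), 25.5 for Ccl3 (13.1 to 56.7), 35.4 for Ccl4 (19.5 to 71.7) and 27.2 for Ccl7 (10.2 to 102). Ccl3, Ccl4 and Ccl7 had intervals that overlapped each other, and the interval of Ccl2 lay below all of theirs. Between WI and Sham the ratio was 2.35 for Ccl2 (1.36 to 4.22), the only one of the 4 whose interval lay above 1. It was 2.70 for Ccl3 (0.674 to 15.5), 1.67 for Ccl4 (0.567 to 5.50) and 0.926 for Ccl7 (0.172 to 4.97). Changes of these 3 genes within those intervals could not be detected at this depth. For Ccl2 the deposited bounds of WI and Sham overlapped, and its interval covers counting error between 2 single libraries only. Between IR and Sham the ratio was 15.1 for Ccl2 (9.43 to 25.5), 68.8 for Ccl3 (23.1 to 337), 59.1 for Ccl4 (26.8 to 163) and 25.2 for Ccl7 (9.47 to 94.8).

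**Figure D3:**
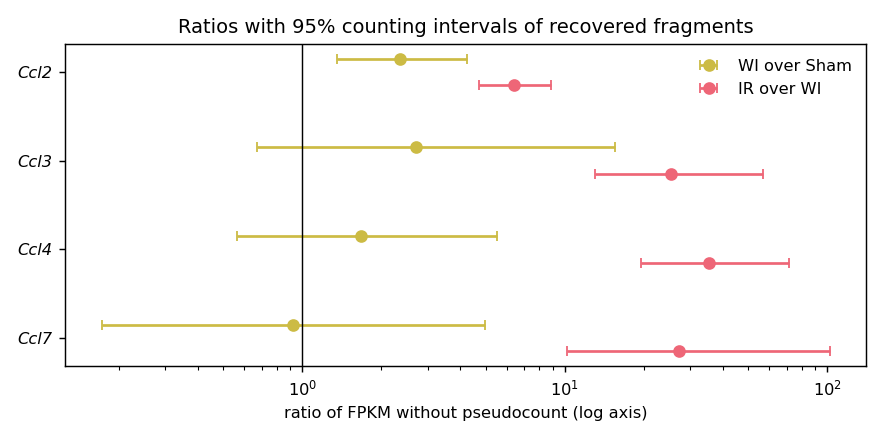
Ratio of plain FPKM (log axis) for Ccl2, Ccl3, Ccl4 and Ccl7, WI over Sham in yellow and IR over WI in red, with 95% counting intervals of the recovered fragments. Every red interval lies above 1, and among the yellow ones only that of Ccl2 does.

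In the log2 scale with 1 added to FPKM, the changes of the scarce genes are understated. With 0.1 added, the change from WI to IR became 4.40 for Ccl3, 4.97 for Ccl4 and 4.23 for Ccl7. Ccl3 then also stood past the threshold for WI against Sham, at 1.06, on 3 and 9 fragments. Ccl24 then crossed it too, at -1.05 for IR against WI and -1.30 for IR against Sham.

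AU-rich elements in the 3′ untranslated region, built on the pentamer ATTTA, mark many short-lived cytokine mRNAs for decay. Counted on the transcript strand with overlaps allowed, ATTTA occurred 5 times in the 409 bases of Ccl3, 2 times in the 302 of Ccl4, 2 times in the 435 of Ccl7 and 1 time in the 275 of Ccl2. At least as many were found in 0.912% of 3′ untranslated regions within 10% of the length of Ccl3, in 11.3% for Ccl4, 19.1% for Ccl7 and 34.5% for Ccl2. Ccl5 and Ccl24 had none. Ccl6 had 4 in 943 bases and Ccl9 had 5 in 2465, and at least as many were found in 12.4% and 42.3% of regions of like length. The longer form TATTTAT, which contains the pentamer, was found only in Ccl3 and Ccl4, beside 10.1% and 7.67% of regions of like length. The first such site of each is shown because these are the only members that hold it, with the 7 bases in capitals.
Ccl3: tatttgtgacTATTTATtctgaaagac
Ccl4: ttatttctatTATTTATgttttagtta

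A match of letters is a description and not a measured site of decay. Of 7 genes that act in mRNA decay, not all through such elements, 1 was at least 2-fold higher in IR than in WI, beside 5.78% of all genes. It was Zc3h12a, the endonuclease Regnase-1, with an FPKM of 1.18 in Sham, 1.03 in WI and 3.95 in IR and bounds apart between WI and IR. It was under the threshold on FPKM rescaled to a common sum. Zfp36 (tristetraprolin), which binds AU-rich elements and speeds decay, had 83.9, 93.1 and 154, and its relative Zfp36l1 had 47.0, 48.0 and 69.8, neither past the threshold. The median log2 change of the 7 from WI to IR was 0.47.

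Among receptors, the 2 past the threshold were Ccr1 and Ccrl2. Ccr1, a receptor of Ccl3, Ccl5, Ccl6, Ccl7 and Ccl9 on neutrophils and monocytes, had an FPKM of 0.0974 in Sham, 0.0783 in WI and 3.44 in IR, a log2 change of 2.04 from WI to IR. Ccrl2, which binds chemerin and does not signal like the others, had 2.29, 1.14 and 10.5, a change of 2.43. Both had IR bounds wholly above the WI bounds. Both also stayed past the threshold on FPKM rescaled to a common sum. These were 2 of the 6 that passed the filter, of 14 receptors in the tables, and none of the 6 was 2-fold lower in IR than in WI. Over all genes tested, 5.78% were at least 2-fold higher in IR than in WI. Ccr1 passed the filter through IR alone.

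Ccr2 and Ccr3 did not pass the threshold in any comparison. Ccr2, the receptor of Ccl2 and Ccl7 on monocytes, had an FPKM of 0.879 in Sham, 1.03 in WI and 0.932 in IR. Ccr3, the eotaxin receptor, had 0.109, 0.0635 and 0.0347, and did not pass the filter. Ackr1, the scavenging receptor on vessels and red cells, had 0.644, 1.09 and 2.25, a log2 change of 0.64 from WI to IR and of 0.98 from Sham to IR. In the same libraries the ligands Ccl2 and Ccl7 rose while Ccr2 stood at 0.879 to 1.03 throughout.

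The other 16 CC ligand genes included none past the threshold. Of them 5 passed the filter, with a median log2 change of 0.46 from WI to IR. That median was 0.21 on FPKM rescaled to a common sum, and over all 16 on deposited FPKM it was 0.01. Ccl19, a ligand of Ccr7, had an FPKM of 8.24 in Sham, 8.15 in WI and 16.2 in IR, a log2 change of 0.91. Ccl21a, which binds the same receptor, had 1.21, 1.22 and 3.09, and Ccl17, a ligand of Ccr4 made by dendritic cells and under the filter, had 0.456 in Sham, 0.584 in WI and was listed at 0 in IR. Ccl12, the remaining MCP-like gene of the 5, had 0.362, 0.502 and 1.04. Ccl12 passed the filter through IR alone and had to be higher there. Ccl1, Ccl20, Ccl21c and Ccl26 were listed at 0 in all 3 libraries.

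Of 16 cytokines and transcription factors known to induce CC ligands, 14 passed the filter. Of these, 6 were at least 2-fold higher in IR than in WI, where 5.78% of all genes tested were, and none was lower. Junb, an AP-1 subunit, had an FPKM of 25.7 in Sham, 42.8 in WI and 189 in IR. Il1b, the cytokine interleukin-1 beta, had 4.24, 7.29 and 23.4. Cebpb, a transcription factor of the acute phase, had 158, 113 and 334. Junb and Il1b had bounds apart between WI and IR, and Cebpb did not. On FPKM rescaled to a common sum, 3 of the 14 were at least 2-fold higher in IR than in WI, where 322 of the 10792 genes tested were. In WI against Sham, 1 of the 14 was at least 2-fold higher, where 0.751% of all genes were, and none was lower. It was Fos, with an FPKM of 8.31 in Sham and 28.9 in WI.

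Of 12 genes of signalling below chemokine receptors, 10 passed the filter and none changed 2-fold on FPKM + 1 in any comparison. That scale understates changes of scarce genes. Fgr, a Src family kinase of myeloid cells, moved most from WI to IR, with an FPKM of 1.29 in Sham, 1.02 in WI and 2.57 in IR. Dock2, which turns receptor signals into migration, had 1.81 (0.842 to 2.78), 0.987 and 0.498 (0.169 to 0.827). The IR bounds of Dock2 lay wholly below those of Sham. Vav1, another exchange factor, had 2.92, 1.38 and 2.04. On FPKM rescaled to a common sum, 3 of the 10 were at least 2-fold lower in IR than in Sham. Of the 10792 genes tested, 1109 were lower on that scale.

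**Figure D4:**
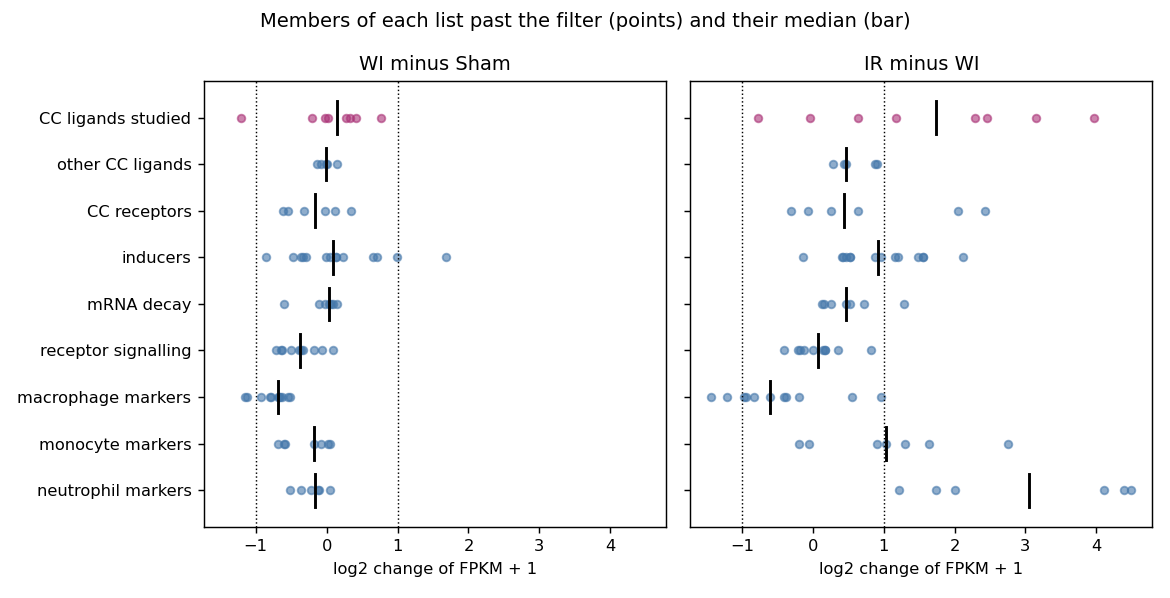
Log2 change of FPKM + 1 from Sham to WI (left) and from WI to IR (right) for the genes of 9 lists that passed the filter, a point for each gene and a bar for the median, with dotted lines at 2-fold. From WI to IR the median is 1.73 for the CC ligands studied, 0.46 for the other CC ligands, 3.06 for neutrophil markers and -0.61 for macrophage markers. Genes that passed the filter through IR alone, in both ligand lists and the receptor, neutrophil and monocyte lists, had to be higher there.

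Neutrophil markers were higher in the library in which the 4 ligands rose. Of 11 in the tables, 6 passed the filter and these 6 were at least 2-fold higher in IR than in WI, beside 5.78% of all genes. But Cxcr2 and Ngp passed through IR alone and had to be higher there. The median log2 change was 3.06 over the 6 and 1.22 over all 11. S100a8 had an FPKM of 13.6 in Sham, 9.17 in WI and 212 in IR. The summed FPKM of the list was 26.2, 20.03 and 463. The granule genes Mpo and Elane did not pass the filter. Mpo had 0.0598 in Sham, 0.0131 in WI and 0 in IR, and Elane had 0.0955, 0 and 0.118. On FPKM rescaled to a common sum, 5 of the 6 were at least 2-fold higher in IR than in WI, Cxcr2 among them. Of the 10792 genes tested, 322 were higher on that scale. Of 8 monocyte markers 7 passed the filter and 4 were 2-fold higher in IR than in WI, beside 5.78% of all genes. Of the 4, Itgam, F13a1 and Chil3 (listed as Chi3l3) passed through IR alone and had to be higher there. Chil3 had 0.327, 0.258 and 7.51, while Lyz2 had 131, 80.7 and 70.7. On FPKM rescaled to a common sum, 2 of the 7 were at least 2-fold higher, where 322 of the 10792 genes tested were. These were F13a1 and Chil3, both of which passed the filter through IR alone. The summed monocyte FPKM was 372, 307 and 333. The part of either cell type in the rise of Ccl2, Ccl3, Ccl4 and Ccl7 was not tested.

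Most markers of resident macrophages were lower in IR than in Sham, and not all. Of 11 such markers, all past the filter, 8 were at least 2-fold lower in IR than in Sham, where 232 of the 10792 genes tested were. In WI against Sham 2 were lower, where 1.10% of all genes were, and none was higher in either comparison. Vsig4, a complement receptor of Kupffer cells, had an FPKM of 67.8 in Sham, 35.1 in WI and 12.4 in IR. Marco, a scavenger receptor, had 20.9, 12.6 and 25.3, and Cd68, a lysosomal protein, had 18.5 in Sham, 12.3 in WI and 18.5 in IR. The summed FPKM of the list was 873, 501 and 363. Ccl24 had 4.38, 3.66 and 1.71 in the same libraries, and Ccl6 and Ccl9, which macrophages also make, stood in IR at 24.1 and 34.7 against 24.6 and 26.5 in Sham. None of 4 eosinophil markers passed the filter, with a summed FPKM of 0.199, 0.101 and 0.234. The part of these cells in any ligand's value was not tested.

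Markers of T and NK cells, which make Ccl5, did not pass the threshold on deposited FPKM + 1, a scale that understates changes of scarce genes. Of 12 markers 4 passed the filter, and on FPKM rescaled to a common sum 2 of the 4 were at least 2-fold lower in IR than in WI. Of the 10792 genes tested, 833 were lower on that scale. Nkg7, a granule protein of cytotoxic cells, had an FPKM of 2.58 in Sham, 2.23 in WI and 0.851 in IR, while Ccl5 had 11.8, 11.99 and 19.2. The summed FPKM of the T and NK list was 13.04, 12.6 and 6.74.

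Genes near each ligand were sought by their pair of log2 changes (Sham to WI and WI to IR, Euclidean distance over 3 libraries). Within a distance of 0.2 there were 3 genes for Ccl2, 2 for Ccl3, 4 for Ccl4, 13 for Ccl7 and 4 for Ccl6. Ccl6 was not higher in IR than in Sham, so having few near genes was not particular to the ligands that rose. Nearest to Ccl2 were Bcl3, a nuclear partner of NF-kB, at 0.12 and Junb at 0.18. Nearest to Ccl3 were Itpkc at 0.09 and Akap12 at 0.19, and nearest to Ccl4 were Selenbp2 at 0.02 and the heat shock cochaperone Dnajb1 at 0.14. Ccl7 lay nearest to Ppp1r15a (Gadd34) at 0.02 and to Sprr1a at 0.06, and Ccl6 nearest to Got1 and Ccng2 at 0.12 and 0.13. Ccl5 had 560 genes within 0.2, Ccl9 533 and Ccl24 131, so their nearest genes, Ptbp2 and Fam83g, Ppapdc1b and BC017612, and Snrk and Acot4, say little about them.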

How the data were processed

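The authors mapped the mRNA reads to mm10 with TopHat2 2.0.9 and deposited, from Cuffdiff (Cufflinks 2.0.2, per the submitters' processing notes), the FPKM of every gene in each library with 95% bounds and a status. The tables hold no counts, and strandedness is not given in the sources used here.

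The members and gene lists were chosen with earlier results of these data known. The text names all 8 members, the 3 genes of each ligand, receptor, inducer, decay and signalling list with the largest change from WI to IR, the receptors Ccr1, Ccr2 and Ccr3 (another receptor of that rule is not reported here), and the 2 nearest genes of each member. Fos, Ccl11, Ccl12, Ccl22, Tnf, the ligands at 0 and the marker genes were picked after their values were seen. Changes were computed on log2(FPKM + 1) for genes with an FPKM of 1 or more in any library, with a threshold of 2-fold, and a second rule asked that the deposited bounds be apart.

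Fragment numbers came from the relative width of the bounds, which stepped through 12 resolved values per library. That of Ccl2 in Sham was read from the curve through genes of known number, and larger numbers from the worth of 1 fragment in each library. The recovery was also run on simulated data in which most values had a fixed width for each fragment number. That run takes such widths as given and cannot show that the deposited bounds have them. Alternatives were pseudocounts of 0.1 and 0.01, other filters, fold thresholds of 1.5 and 4, and rescaling to a common sum or by the median ratio. Sequences are those of the longest protein-coding transcript of each symbol in an older GENCODE release (NCBIM37), used without coordinates, and RefSeq positions are on GRCm38.p6, which shares its coordinates with mm10. Table starts count from 0 and were raised by 1. The work was done in Python 3.11.15 with scipy 1.17.1, numpy 2.4.6, pandas 2.3.3, Biopython 1.88 and matplotlib 3.10.9.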

Additional observations from a re-analysis of the deposited data

How the results depend on the processing

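The 2-fold counts for IR against WI and IR against Sham stayed within 1.5 times their main values (5 and 4 of 8) under every alternative tried, as did the counts of bounds apart, and no change past 2-fold turned its direction. For WI against Sham, where 1 member was past 2-fold, the count was 3 with a pseudocount of 0.1 or of 0.01 (Ccl2 and Ccl3 added as higher), 2 at a fold threshold of 1.5 and 0 at a threshold of 4. Chosen after seeing the data, leaving out Ccl6 gave 0 members changed in that comparison, and exact Poisson intervals of the recovered fragments (4 members) put 1 apart, Ccl2, where the deposited bounds put 0 apart. Over all genes, rescaling to a common sum turned the share of higher calls from 80.2% to 27.9% for IR against WI and from 71.3% to 19.5% for IR against Sham, and among the members it took Ccl6 from IR against WI. Ccl24 was added as lower in both under that rescaling and with either smaller pseudocount. Calls over all genes for IR against WI numbered 778, and 1239 and 1331 with pseudocounts of 0.1 and 0.01. For IR against Sham they numbered 809, 1429, 1505 and, at a common sum, 1378. For WI against Sham they numbered 200, 382 and 447. At thresholds of 1.5 and 4 they were 2132 and 194, 2572 and 166, and 800 and 24. The cause of these shifts was not tested, beyond that smaller pseudocounts and thresholds pass more genes by construction. With 1 library per group, depth limits Ccl3, Ccl4 and Ccl7 in Sham and WI, and the spread between mice is unknown for every value. The labels give 1 library a group, so no replicate could be left out. No paired analysis was possible because each group has 1 library.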

Other observations

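Among CC ligands under the filter, Ccl11 (eotaxin-1) had 0.0383 in Sham, 0.0357 in WI and 0.347 in IR (0.0254 to 0.669), an opposite direction from WI to IR to that of Ccl24, which binds the same receptor, with bounds that overlapped. Ccl22, which binds Ccr4 like Ccl17, had 0.454, 0.256 and 0.137. Tnf, an inducer of several CC ligands, was listed at 0 in Sham and had 0.0851 in WI (0 to 0.183) and 0.808 in IR (0.226 to 1.39), under the filter in every library but with bounds apart between WI and IR.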
